A study of Mus musculus with 2 samples.

Results

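The genes described here are those of the heat shock proteins, the DNAJ cochaperones, the BAG proteins and the heat shock factors Hsf1 and Hsf2. They were measured in CE1-4 cells, a line of mouse prostate cancer. They were taken by symbol: every row of the count table beginning Hspa, Hspb, Hspd, Hspe, Hsph or Hsp90, or Dnaja, Dnajb or Dnajc, followed by a number, together with Bag1 to Bag6 and both factors. The endoplasmic reticulum (ER) genes Hspa5, Hsp90b1, Dnajb9, Dnajb11, Dnajc3 and Dnajc10 were left out. Genes of other ER or microsomal proteins, such as Hspa13, Dnajb12 and Dnajb14, fit the symbols and were kept. This gave 74 genes of the 23420 in the table, of which 62 were tested, that is, reached 1 count per 1000000 counts (CPM) in at least 1 library. The groups were CE1-4 cells exposed to prostaglandin E2 (PGE2) for 6 h and CE1-4 cells without treatment, with 1 stranded total RNA library in each. The labels give no PGE2 dose, no vehicle, no time for the untreated cells and no genotype or origin of the line beyond mouse prostate cancer. Vehicle, culture time and PGE2 cannot be told apart, and no difference below has a replicate check.

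Heat shock proteins bind unfolded or partly folded proteins and let them reach or regain their fold. HSP70 proteins do so in cycles of ATP use, in which DNAJ proteins bring the client and start ATP hydrolysis and BAG and HSP110 proteins release the ADP. HSP90 takes over clients such as kinases and steroid receptors, and HSP60 with HSP10 folds proteins inside mitochondria. Under stress HSF1 forms trimers that bind heat shock elements, arrays of a 5-base unit in alternating orientation, and raises transcription of the inducible members. PGE2 acts through G protein-coupled receptors and is not itself a denaturing stress.

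The treated library held 17582808 counts and the untreated library 16908429, so 1 CPM stood for 17.6 counts in the treated and 16.9 counts in the untreated library. Epithelial keratin transcripts were abundant, with Krt8 at 1276 CPM treated and 1256 CPM untreated. Hoxb13, a prostate transcription factor gene, had 268 counts treated and 267 untreated. The prostate luminal gene Pbsn had 0 counts in both libraries, so the labelled tissue rests on part of its defining markers here. Of 4 leukocyte markers Cd68 had 66 counts treated and 70 untreated and the others at most 4, and 3 endothelial markers had at most 3 counts. Vim, a mesenchymal marker, had 36950 and 34224 counts. Rn45s, the ribosomal RNA precursor, had 86196 counts treated and 141575 untreated, a log2 ratio of -0.78 (95% counting interval -0.79 to -0.77). Lars2, encoding the mitochondrial leucyl-tRNA synthetase, had 18082 and 75505 counts (-2.13, -2.15 to -2.10). The part of these differences in library content in the small ratios below was not tested.

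Heat shock elements were sought in the RefSeq promoter windows on GRCm38.p6, which run from 250 bases before to 50 after a gene's start. These windows were found for 58 of the 74 members. The windows of Bag4, Dnajc2, Dnajc5, Dnajc5b, Dnajc11, Dnajc12, Dnajc18, Dnajc22, Dnajc30, Hsf1, Hsp90aa1, Hsp90ab1, Hspa8, Hspa9, Hspa13 and Hspb2 were not analysed here. A pair of units was GAA then TTC or TTC then GAA with any 2 bases (NN) between them. It was present in 16 of the 58 members (27.6%) and in 17.0% of the 27025 genes with a RefSeq promoter window. An array of 3 units, with GAA and TTC alternating at the same spacing, was present in 4 members (6.90%). It was present in 0.662% of the same 27025 genes. Each pair is its own reverse complement, the triplets are the reverse complements of each other, and every triplet contains both kinds of pair. Both strands were thereby searched. The 4 members with a triplet were Hspd1, Hspe1, Hsph1 and Dnajb6. The windows of Hspe1, Hsph1 and Dnajb6 are printed 5′ to 3′ on the gene's strand to show the arrays. Beside them are the windows of the stress-inducible genes Hspa1b and Bag3, in which a pair but no triplet was matched. Capitals mark the matched letters. Only exact GAA and TTC units inside the window were sought.
Hspe1, chr1:55087898-55088197, plus strand: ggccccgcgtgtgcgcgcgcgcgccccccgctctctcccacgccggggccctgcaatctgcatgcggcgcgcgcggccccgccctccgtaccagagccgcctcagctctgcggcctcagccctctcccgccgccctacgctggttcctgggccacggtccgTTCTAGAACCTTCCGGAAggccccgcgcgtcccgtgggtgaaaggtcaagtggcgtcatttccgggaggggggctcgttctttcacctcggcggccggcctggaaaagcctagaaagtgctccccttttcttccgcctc
Hsph1, chr5:149636266-149636565, minus strand: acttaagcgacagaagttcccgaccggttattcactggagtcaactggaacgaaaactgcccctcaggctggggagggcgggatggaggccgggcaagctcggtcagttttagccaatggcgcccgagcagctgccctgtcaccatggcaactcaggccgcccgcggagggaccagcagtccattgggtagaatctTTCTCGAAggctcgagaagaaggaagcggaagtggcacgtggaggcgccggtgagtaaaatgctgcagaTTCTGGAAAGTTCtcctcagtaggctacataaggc
Dnajb6, chr5:29735648-29735947, plus strand: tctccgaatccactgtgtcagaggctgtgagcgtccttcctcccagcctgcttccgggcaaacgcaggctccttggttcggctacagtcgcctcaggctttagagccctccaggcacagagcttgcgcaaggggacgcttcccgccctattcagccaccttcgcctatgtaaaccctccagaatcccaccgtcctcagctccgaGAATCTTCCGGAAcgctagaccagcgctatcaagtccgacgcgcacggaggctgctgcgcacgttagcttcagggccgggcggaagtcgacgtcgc
Hspa1b, chr17:34959189-34959488, minus strand: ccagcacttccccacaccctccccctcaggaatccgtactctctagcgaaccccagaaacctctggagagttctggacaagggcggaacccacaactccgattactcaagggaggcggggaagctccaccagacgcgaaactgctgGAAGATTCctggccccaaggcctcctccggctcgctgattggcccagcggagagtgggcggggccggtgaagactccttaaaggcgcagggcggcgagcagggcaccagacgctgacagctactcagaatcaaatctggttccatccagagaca
Bag3, chr7:128523333-128523632, plus strand: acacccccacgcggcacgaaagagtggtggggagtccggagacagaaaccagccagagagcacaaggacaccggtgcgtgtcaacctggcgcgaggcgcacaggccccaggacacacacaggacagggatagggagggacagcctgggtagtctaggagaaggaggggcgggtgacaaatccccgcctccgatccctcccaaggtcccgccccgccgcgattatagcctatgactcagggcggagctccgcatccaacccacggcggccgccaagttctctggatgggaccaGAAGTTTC
In Hspe1 the matched letters form 1 run of 18 bases holding 4 alternating units, which begins 89 bases before the start of that gene. The same DNA lies in a window of Hspd1, the gene on the opposite strand, whose span there overlaps the Hspe1 window by 285 bases. The triplet of Dnajb6 begins 46 bases before the gene start on which its printed window is set. That of Hsph1 begins 15 bases past the gene start of its own printed window. The pair of Hspa1b begins 104 bases before the gene start and that of Bag3 42 bases past it. The pair of Bag3 ends with the last letter of its window, so units further on were not searched. A match in these letters is a description of the window and not a binding site.

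The chaperone and cochaperone transcripts were nearly the same in the treated and untreated libraries. Of the 62 tested members, 49 (79.0%) lay within 1.1-fold between the libraries, against 71.4% of the 11387 tested genes. The median log2 ratio of treated over untreated was 8.2e-06 over the members and -0.0014 over all tested genes. The interval lay wholly inside 1.2-fold in both directions for 36 members (58.1%) and inside 2-fold for 59 (95.2%), against 47.5% and 92.4% of all tested genes. In these libraries 0 members were at least 1.2-fold higher with an interval above a ratio of 1, and 1, Dnajb3, was at least 1.2-fold lower with an interval below it. Over all tested genes these shares were 0.975% and 1.92%.

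Small differences beyond counting error were more often upward. The interval lay above 1 for 11 members (17.7%), where the share over all tested genes was 6.61%, and below 1 for 3 (4.84%), where it was 5.65%. The 11 were Hsp90aa1, Hspa8, Hspa9, Hspa13, Hspa4, Hspd1, Hspe1, Dnajb6, Dnajc2, Dnajc8 and Dnajc9, higher by 2.61% to 9.44%, and the 3 were Bag3, Bag6 and Dnajb3. All of the 11 had at least 1000 counts in both libraries together, where intervals are narrow, and 36 of the 62 members (58.1%) had that depth against 47.5% of tested genes. Among the 622 genes with 10000 counts or more the interval was above 1 for 33.4% and below 1 for 12.9%, and 6 of the 9 members there had it above and 0 below. With 1000 to below 10000 counts it was above 1 for 8.64% of 4791 genes and below 1 for 6.26%, and for 5 and 1 of 27 members. From 100 to below 1000 counts 0 of 21 members had it above 1 and 1 below, where the shares were 2.49% and 4.47%. Below 100 counts these numbers were 0 and 1 of 5 members, with shares of 1.06% and 4.16%.

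**Figure D1:**
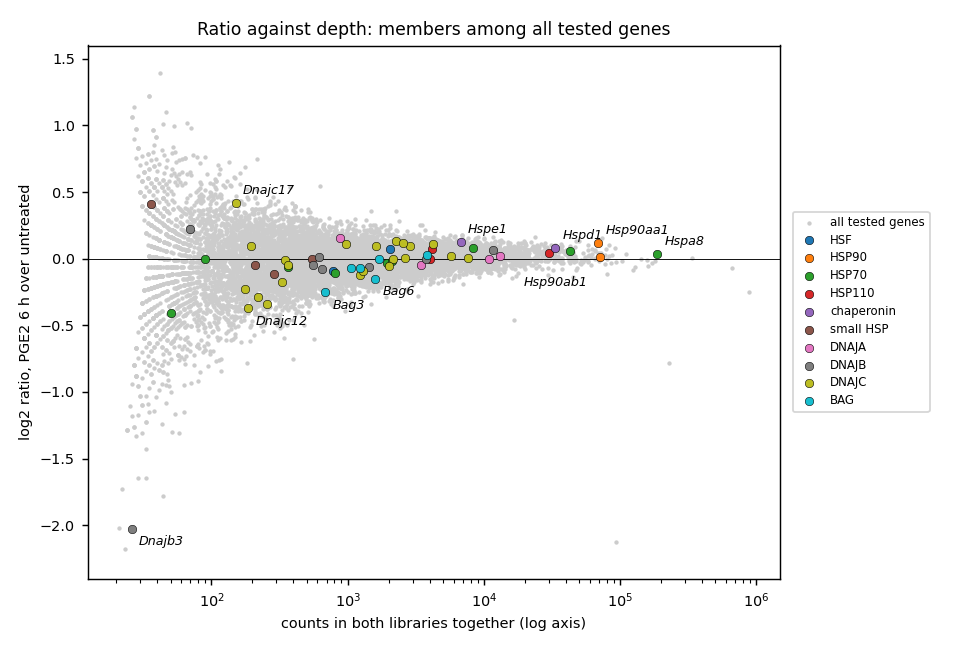
Log2 ratio of the PGE2 over the untreated library (vertical axis) against the counts of each gene in both libraries together (log axis), with grey points for the 11387 tested genes and coloured points for the 62 tested members by class. The members lie within the grey cloud at every depth, with Hsp90aa1 near its upper edge among abundant genes at 0.12 and Dnajb3, with 26 counts, at its lower end at -2.03.

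The 74 members took 1.67% of all counts in the treated and 1.61% in the untreated library, and a few genes held most of that. Hspa8 alone held 33.2% of the members' counts in the treated and 33.4% in the untreated library, and the 10 members with the most counts held 85.0% and 84.7%. Hspa8 was the gene with rank 4 by counts among all genes in the treated library and rank 5 in the untreated library. Per length, in CPM per kilobase of annotated exon, the order in the untreated library began with Hspa8 (1251), Hsp90ab1 (685), Hsp90aa1 (490), Hspd1 (357) and Hspa9 (283). In the treated library the same genes stood at 1284, 692, 532, 377 and 294 CPM per kb. Among the 62 tested members the order in the untreated library ended with Dnajb5, at 0.363 CPM per kb treated and 0.310 untreated.

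**Figure D2:**
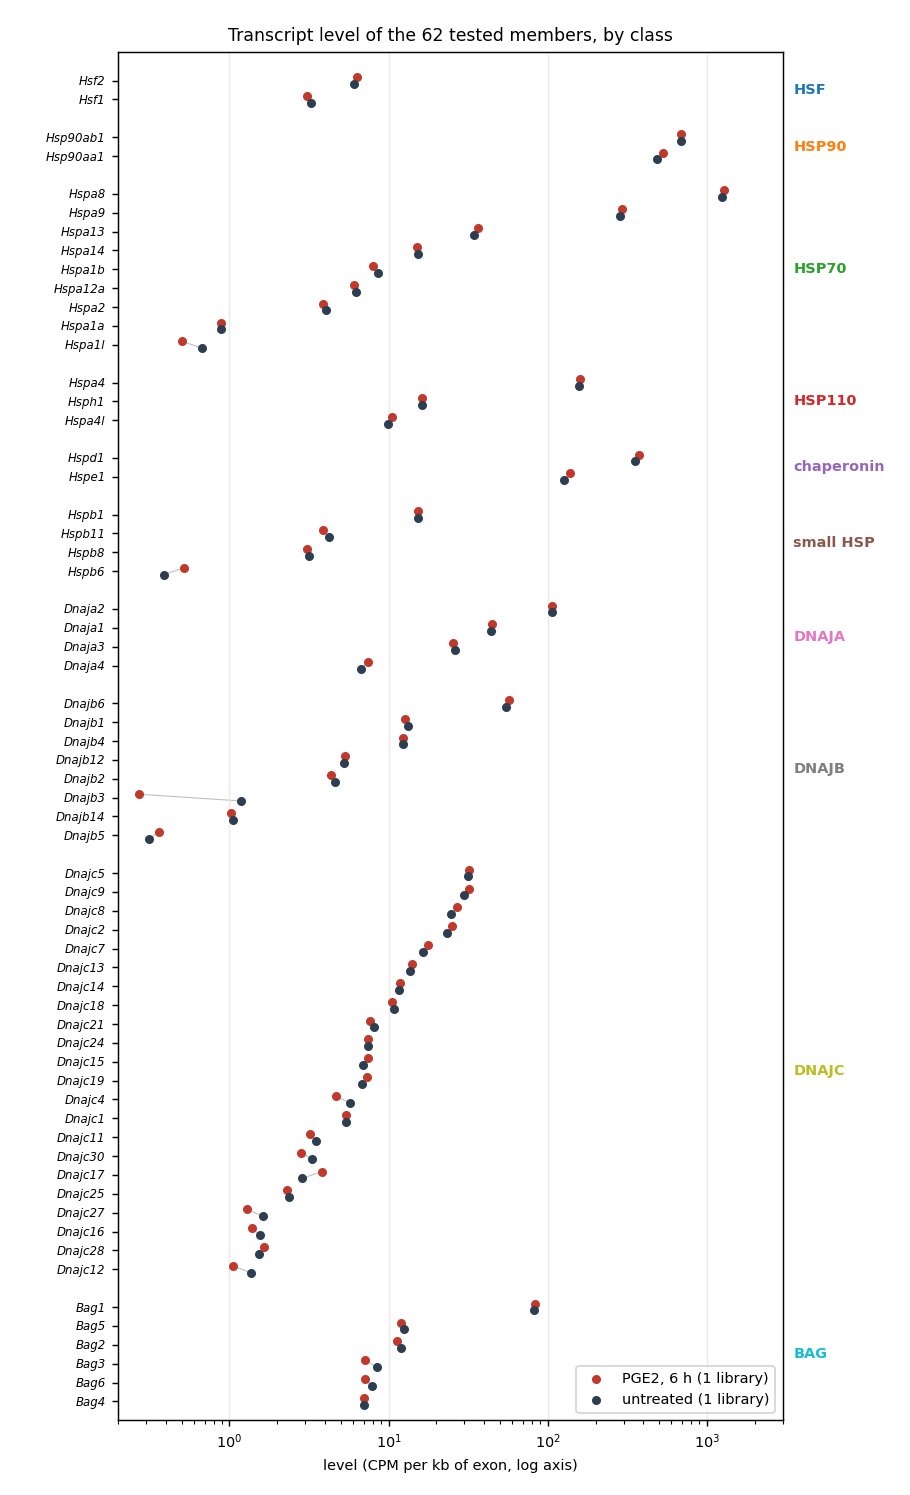
Transcript level of the 62 tested members in CPM per kb of exon (log axis), grouped by class and ordered within a class by the untreated level, with a red point for the PGE2 library and a dark point for the untreated library. The paired points nearly coincide for all classes, apart from scarce members such as Dnajb3 (0.270 against 1.18 CPM per kb), and the members highest per length are Hspa8, Hsp90ab1, Hsp90aa1, Hspd1 and Hspa9.

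The heat shock factors themselves were expressed at modest levels that did not differ beyond counting error. Hsf1, encoding the main stress-activated factor (chromosome 15, 76477422 to 76501913, plus strand), had 384 counts in the treated and 391 in the untreated library, a log2 ratio of -0.09 (-0.30 to 0.12). Hsf2, encoding a related factor that can form trimers with HSF1, had 1076 counts treated and 978 untreated (0.07, -0.05 to 0.20). Per length Hsf2 was the higher of the pair, at 6.35 CPM per kb treated and 6.04 untreated, with Hsf1 at 3.07 and 3.27. HSF1 is regulated largely as a protein, so its transcript level is not a readout of its activity.

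Of the cytosolic HSP90 paralogs, Hsp90aa1 was slightly higher and Hsp90ab1 was level. Hsp90aa1 (HSP90 alpha, the more stress-responsive form, on chromosome 12 from 110690605 to 110702728, minus strand) had 36837 counts in the treated and 32490 in the untreated library. That is 2089 CPM (2068 to 2111) treated against 1927 CPM (1906 to 1948) untreated. It was 8.44% higher, with a log2 ratio of 0.12 (0.10 to 0.14). By ratio it was number 21 from the top of the 622 genes with 10000 counts or more, in which 5% of genes lay above 0.11. Hsp90ab1 (HSP90 beta, the constitutive form, on chromosome 17 from 45567775 to 45573271, minus strand) had 36607 counts treated and 34666 untreated, 2076 and 2056 CPM, with an interval that included 1 (0.014, -0.0069 to 0.036). Its interval lay above 1 with scaling on total counts, DESeq2 size factors or the upper quartile, and after GC and length trends, where its ratio was 0.034 and that of Hsp90aa1 0.09. Hsp90aa1 made up 50.2% (exact binomial interval 49.8 to 50.5%) of the counts of the pair in the treated and 48.4% (48.0 to 48.8%) in the untreated library. These intervals do not overlap, so the shift in the pair exceeded counting error, with no replicate to show the spread between cultures. In the annotation 47.5% of the 50-base windows of Hsp90aa1 transcripts, but 3.44% of those of Hsp90ab1, also occur in another gene, with the pseudogene Gm12346 the most frequent partner of Hsp90aa1, and how shared reads were counted is not given.

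Among HSP70 genes the abundant housekeeping members were marginally higher and the stress-inducible ones were scarce. Hspa8, encoding the constitutive HSC70, had 97342 counts in the treated and 90735 in the untreated library, 5521 against 5381 CPM, a log2 ratio of 0.037 (0.024 to 0.050). Hspa9, encoding the mitochondrial HSP70 mortalin, had 22375 counts treated and 20602 untreated (0.055, 0.027 to 0.082). Hspa13, encoding a microsomal HSP70-like protein, had 4410 and 3990 counts (0.08, 0.018 to 0.14), and its interval included 1 after GC and length trends were subtracted (0.043). These 3 ratios were within the middle 90% of genes of like depth, whose bounds were -0.074 and 0.11 at 10000 counts or more and -0.13 and 0.13 at 1000 to below 10000. For Hspa8, 38.6% of the 50-base windows are shared with other annotated genes, processed pseudogenes among them.

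The inducible HSP70 genes, known for a steep rise in a heat shock response, had intervals that included 1. Hspa1b had 395 counts in the treated and 406 in the untreated library (log2 ratio -0.10, -0.31 to 0.10), and Hspa1a 46 counts treated and 44 untreated (-0.00014, -0.63 to 0.63). The genes neighbour each other on chromosome 17, from 34956436 to 34959238 and from 34969190 to 34972156, both on the minus strand, and 60.4% of the windows of Hspa1a and 62.3% of those of Hspa1b are shared, so reads could be split or lost between them. Summed over the pair, the counts were 441 treated and 450 untreated (log2 ratio -0.09, -0.29 to 0.10). That interval excludes a rise of 1.2-fold, although read sharing limits the level itself. Hspa1l, a testis-enriched gene beside them, had 22 counts treated and 28 untreated, and 71.9% of its exons lie opposite the antisense transcript Gm10501. The remaining tested genes of the class were Hspa14, of a ribosome-bound complex (1084 counts treated and 1048 untreated), Hspa12a, an atypical member (989 and 969), and Hspa2, a testis HSP70 (181 and 181), all with intervals that included 1. The class median was -0.016 over 9 tested genes while its summed counts gave 0.04 (0.028 to 0.051), since Hspa8 dominates the sum.

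The HSP110 proteins, nucleotide exchange factors of HSP70, were led by Hspa4. It had 15679 counts in the treated and 14594 in the untreated library, 889 against 865 CPM (log2 ratio 0.039, 0.0066 to 0.072), and its interval included 1 after the abundance trend (0.017) and with totals without Rn45s, Lars2 and Malat1 (0.030). Hsph1, encoding the heat-inducible HSP105, had 2072 counts treated and 1980 untreated, 117.5 against 117.4 CPM (0.0012, -0.088 to 0.09), although its window holds a triplet of heat shock units. Hspa4l had 2177 and 1982 counts (0.07, -0.017 to 0.16). Per length Hspa4 stood at 161 CPM per kb treated and 157 untreated, above Hsph1 at 16.2 in both.

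The mitochondrial chaperonin pair, which shares a divergent promoter on chromosome 1, was higher in the treated library for both genes. Hspd1, encoding HSP60 (55077835 to 55088243, minus strand), had 17578 counts treated and 15885 untreated, 997 against 942 CPM, 5.84% higher (log2 ratio 0.08, 0.051 to 0.11). Hspe1, encoding its lid HSP10 (55088132 to 55091307, plus strand), had 3597 counts treated and 3150 untreated, 204 against 187 CPM, 9.21% higher (0.13, 0.058 to 0.20). By ratio Hspd1 was number 80 from the top of the 622 genes with 10000 counts or more, of which 33.4% had an interval above 1. Hspe1 was number 261 of the 4791 genes with 1000 to below 10000 counts, of which 8.64% had one. Their ratios, 0.082 and 0.127, lay within the lower 95% of genes of like depth, whose upper bounds were 0.108 and 0.130. Summed, the pair gave 0.09 (0.061 to 0.12). Hspe1 was 17.0% of the pair's counts in the treated and 16.5% in the untreated library. The exact binomial intervals of these shares overlap, which does not decide whether the share differed. Near-identical copies are frequent, with 39.7% of the windows of Hspd1 and 18.4% of those of Hspe1 shared with other genes. Of the partners of HSP60 and mortalin in mitochondrial protein quality control, 0 of 7 tested (Trap1, Clpb, Clpp, Clpx, Lonp1, Grpel1 and Htra2) had an interval that excluded 1, and their median log2 ratio was -0.041. Over all tested genes the interval lay above 1 for 6.61% and below 1 for 5.65%, so this count is no result about the list. The most counted were Trap1 (2178 counts treated and 2099 untreated), Grpel1 (1685 and 1594) and Lonp1 (1461 and 1341).

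Small heat shock proteins, which hold unfolding proteins without ATP, were low in CE1-4. Of 8 genes 4 were tested, and all 4 had intervals that included 1. With shares of 6.61% above and 5.65% below 1 over all tested genes, this count is no result about the class. Hspb1 (HSP25) had 279 counts in the treated and 267 in the untreated library, 15.8 CPM in each (log2 ratio -0.00085, -0.25 to 0.25), and 48.8% of its windows are shared with the pseudogene Hsp25-ps1. Hspb11, of the intraflagellar transport machinery, had 142 counts treated and 147 untreated, Hspb8, the partner of BAG3 in selective autophagy, 105 and 104, and Hspb6 (HSP20) 21 and 15. The counts of all 8 genes summed to 554 treated and 534 untreated, a log2 ratio of -0.011 (-0.19 to 0.16). The muscle genes Hspb2, Hspb3 and Hspb7 and the testis gene Hspb9 were below 1 CPM in both libraries. Hspb9 had 5 counts treated and 0 untreated, which allows up to 0.178 CPM there, taken as 3 counts.

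DNAJA proteins, the closest relatives of bacterial DnaJ, showed no member with an interval that excluded 1. The interval lay above 1 for 6.61% and below 1 for 5.65% of all tested genes, so this is no result about the class. Dnaja1 had 6778 counts in the treated and 6389 in the untreated library (log2 ratio 0.021, -0.029 to 0.07), and Dnaja2, the other major cytosolic form, 5593 and 5371 (-0.0058, -0.06 to 0.048). The mitochondrial Dnaja3 had 1754 counts treated and 1733 untreated, and Dnaja4 471 and 404 (0.16, -0.038 to 0.35). For Dnaja4, 44.1% of the exonic bases lie opposite exons of Wdr61. Per length Dnaja2 was the highest of the class at 107 CPM per kb in both libraries, followed by Dnaja1 at 44.6 treated and 43.9 untreated.

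In the DNAJB class the inducible Dnajb1 was level and Dnajb6 was slightly higher. Dnajb1, the classical HSP40 induced by heat, had 717 counts in each library, 40.7 CPM treated against 42.5 CPM untreated (log2 ratio -0.06, -0.22 to 0.09), and the upper bound excluded a rise of 1.2-fold. Dnajb6, which suppresses aggregation of polyglutamine proteins, had 6108 counts treated and 5584 untreated, 346 against 331 CPM (0.07, 0.013 to 0.12), with 17.7% of its windows shared with other genes. Its interval included 1 after the abundance trend was subtracted (0.045). Dnajb4 had 1917 and 1832 counts (0.0012, -0.09 to 0.09). Among lower genes were the ER membrane members Dnajb12 (315 counts treated and 299 untreated) and Dnajb14 (282 and 279), the neuronal Dnajb2 (325 and 328) and Dnajb5 (38 and 31), all with intervals that included 1.

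Dnajb3, a J protein gene known from testis, was the 1 member past the 1.2-fold rule and also past 2-fold, where 0.255% of all tested genes were lower and 0.0527% higher. It had 5 counts in the treated and 21 in the untreated library, 0.284 CPM (0.092 to 0.66) treated against 1.25 CPM (0.77 to 1.90) untreated. Its log2 ratio was -2.03 (-3.90 to -0.69), or -1.42 with a prior of 5 counts. With 26 counts in all it was tested only through the untreated library, and at 5 CPM it was not tested. The gene, on chromosome 1 from 88204732 to 88205782 on the minus strand, lies within the Ugt1a locus on the opposite strand, where Ugt1a7c had 5841 counts treated and 5672 untreated (-0.022, -0.07 to 0.031).

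DNAJC was the largest class, with 22 of 26 genes tested, 3 of them with an interval above 1 and 0 below. After GC and length trends were subtracted 0 of these 3 had an interval above 1, and Dnajc7 had one (0.12). For Dnajc9 the interval also included 1 after the abundance trend and with scaling on totals without Rn45s, Lars2 and Malat1. Dnajc2, the ribosome-associated J protein that works with Hspa14, had 2231 counts in the treated and 1977 in the untreated library (log2 ratio 0.11, 0.022 to 0.20). Dnajc8, a spliceosome-associated member, had 1213 and 1060 counts (0.13, 0.01 to 0.25). Dnajc9, which acts in histone supply, had 1351 and 1193 (0.12, 0.0017 to 0.23). All 3 were within the depth class in which 8.64% of genes had an interval above 1, where 5% of genes lay above 0.13.

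The most expressed DNAJC genes per length were Dnajc5 (31.9 CPM per kb treated and 31.7 untreated), Dnajc9 (32.2 and 29.8), Dnajc8 (26.9 and 24.6) and Dnajc2 (25.2 and 23.3). Dnajc5, encoding cysteine string protein of secretory vesicles, had 3905 counts treated and 3713 untreated (log2 ratio 0.0085, -0.057 to 0.07). Dnajc13, an endosomal protein, had 2939 and 2765 counts, and Dnajc7, a TPR protein that handles both HSP70 and HSP90, 1513 and 1354 (0.10, -0.011 to 0.20). Dnajc14, Dnajc1, Dnajc18, Dnajc21 and Dnajc11 had between 603 and 1359 counts treated and between 628 and 1294 untreated, with log2 ratios from -0.12 for Dnajc11 to 0.0064 for Dnajc14. The mitochondrial import motor genes Dnajc15 (854 counts treated and 764 untreated) and Dnajc19 (520 and 460) had ratios of 0.10 and 0.11 with intervals that included 1.

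Scarcer DNAJC genes spread more widely, as counting error allows at their depth. Dnajc17, of the spliceosome, had 88 counts treated and 63 untreated, the highest ratio among the tested members at 0.42 (-0.07 to 0.91). Dnajc12, a cochaperone of the aromatic amino acid hydroxylases, had 83 and 103 (-0.37, -0.81 to 0.06), Dnajc27, a Rab-related GTPase, 115 and 139 (-0.34, -0.71 to 0.029), and Dnajc4 102 and 119 (-0.29, -0.68 to 0.11). The other genes of this kind were Dnajc24, of diphthamide synthesis (178 and 171 counts), Dnajc25 (184 and 182), Dnajc16 (158 and 171), Dnajc28 (103 and 92) and the mitochondrial Dnajc30 (83 and 93, with 26.2% of its exons opposite Bud23). Each of these had an interval that included 1.

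The BAG genes held 2 of the 3 members with an interval below 1, Bag3 and Bag6, out of 6 tested. The share below 1 was 4.47% of genes with 100 to below 1000 counts, the depth of Bag3. With 1000 to below 10000 counts, the depth of Bag6, it was 6.26%. With a 99% interval neither gene lay below 1. Bag3, which is induced with the heat shock genes and links HSP70 to autophagy, had 321 counts in the treated and 366 in the untreated library, 18.2 CPM (16.3 to 20.3) treated against 21.7 CPM (19.5 to 24.0) untreated. Its log2 ratio was -0.25 (-0.47 to -0.033), and it fell by 16.1%, short of the 1.2-fold rule. Among the 4748 genes with 100 to below 1000 counts 5% lay below -0.32. Bag6, which guards tail-anchored and mislocalized proteins, had 776 counts treated and 824 untreated (-0.15, -0.29 to -0.0077), and its interval included 1 with scaling on total counts or the upper quartile and after removal of GC and length trends. Bag1, the most expressed per length at 83.0 CPM per kb treated and 81.5 untreated, had 1975 and 1854 counts (0.027, -0.07 to 0.12). Bag2, an inhibitor of the ubiquitin ligase CHIP, had 613 counts treated and 614 untreated, Bag4 870 and 832, and Bag5 530 and 532, each with an interval that included 1. Bag3 was 14.0% (12.6 to 15.5%) of the counts of Bag3 and Bag1 in the treated library. In the untreated library it was 16.5% (15.0 to 18.1%). The intervals overlap, which does not decide whether the share differed, and the difference itself was not tested.

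**Figure D3:**
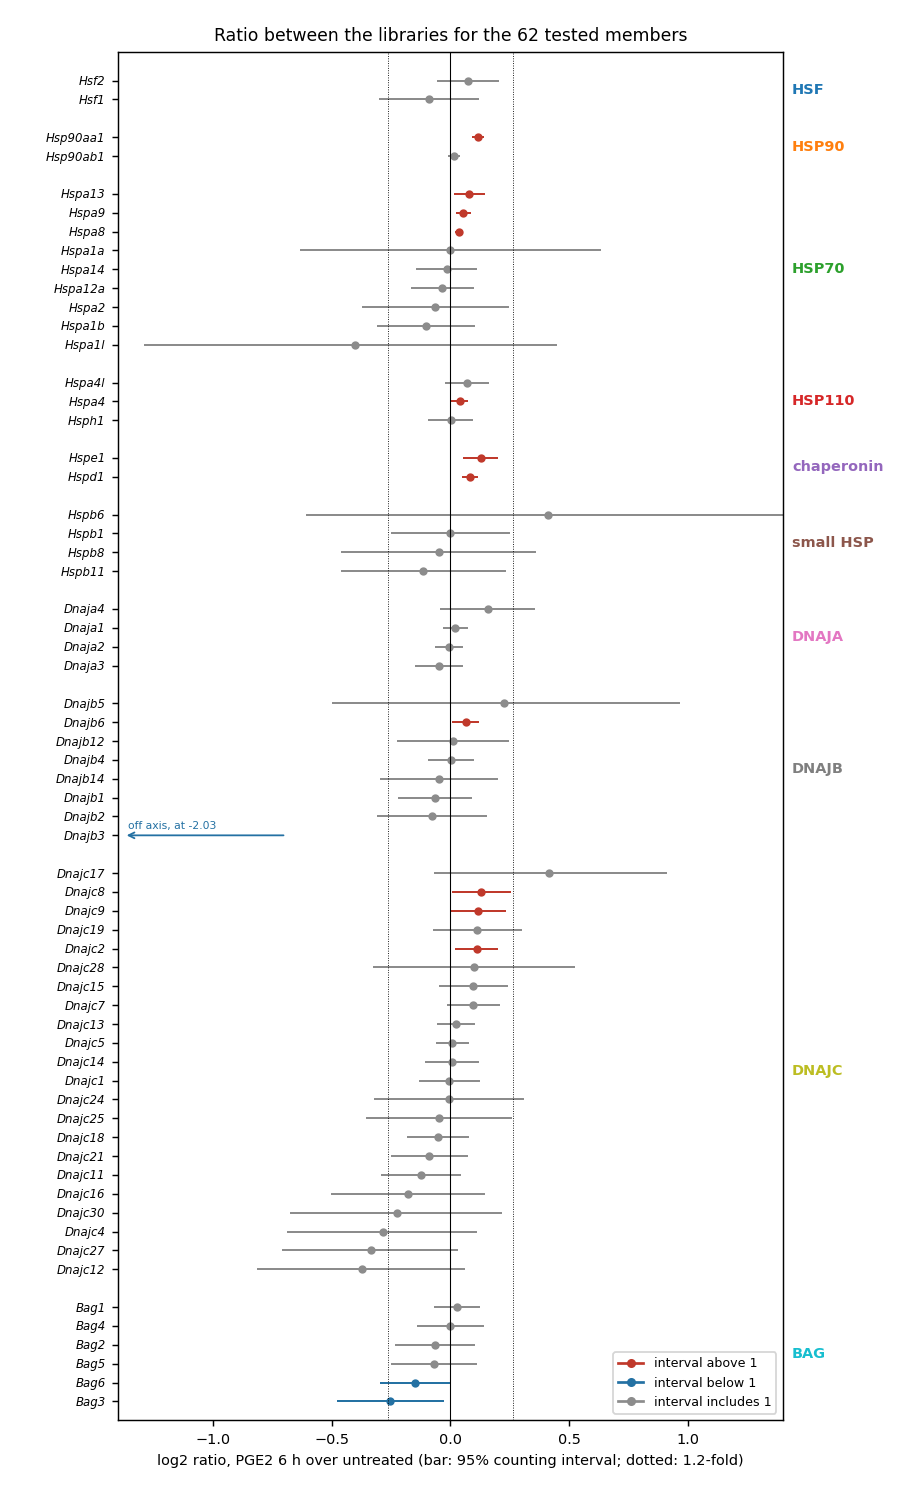
Log2 ratio of the PGE2 over the untreated library for the 62 tested members by class, with bars for the 95% counting interval, red where it lies above a ratio of 1, blue where it lies below and grey where it includes 1, and dotted lines at 1.2-fold. Of the coloured points only Dnajb3, which is drawn as an arrow at -2.03, passes a dotted line, and the 11 red points sit between 0.037 and 0.13.

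The 12 members below 1 CPM in both libraries included genes known from testis, muscle or brain. Dnajb8, Dnajc5b, Dnajc5g, Hspb3 and Hspb7 were at 0 in both libraries, where 3 counts, the limit of a count of 0, are 0.170 CPM treated and 0.178 CPM untreated. Dnajb13, of the sperm flagellum, had 12 counts treated and 6 untreated, and Dnajc6, the neuronal auxilin, 11 and 11. Dnajc22 and Hspa12b each had 2 and 5 counts, Hspb2 2 and 1, Dnajb7 0 and 1, and Hspb9 is given above.

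The 4 with a triplet had log2 ratios of 0.08 (Hspd1), 0.13 (Hspe1), 0.0012 (Hsph1) and 0.07 (Dnajb6), so 3 of the 4 had an interval above 1, while 3 of the other 45 tested members with a window had one above and 3 below. The triplet genes were also deeper, with a median of 259 CPM untreated against 27.3 CPM for the others, and Hspd1 and Hspe1 share their array. With 10000 counts or more, as for Hspd1 and Dnajb6, 33.4% of all genes had an interval above 1. With 1000 to below 10000 counts, as for Hspe1 and Hsph1, 8.64% did. Hsp90aa1, Hspa8, Hspa9, Hspa13 and Dnajc2 also had an interval above 1, and their windows were not analysed here. A link between the array and the ratio was not tested. Over the 14 tested members with a pair the median was 0.0012, with 3 intervals above 1 and 1 below, against -0.0064 over the 35 without, with 3 above and 2 below. The 3 above among members with a pair were again the triplet genes Hspd1, Hspe1 and Dnajb6. The inducible genes with a pair, Hspa1a, Hspa1b, Hspb1, Hspb8 and Dnaja1, had ratios whose intervals included 1, and Bag3 was lower as given above.

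The partners of these chaperones also stayed within 1.2-fold wherever their interval excluded 1. Few genes went past that rule at all, 0.975% of all tested genes as higher and 1.92% as lower. Of the partners with an interval above 1, Ptges3, Ahsa1 and the prefoldin gene Vbp1 had higher ratios than each of the 11 higher members. Of 20 cochaperones of HSP90, 5 had an interval above 1 and 1 below, where the shares over all tested genes were 6.61% and 5.65%, and the median log2 ratio was 0.012. With 10000 counts or more the share above 1 was 33.4% of genes, and with 1000 to below 10000 it was 8.64%. The most abundant were Ptges3, encoding p23, which stabilizes the closed HSP90 and is also a PGE2 synthase (12833 counts treated and 10966 untreated, 0.16, 0.13 to 0.20), Tomm70a, a mitochondrial import receptor (10480 and 9259, 0.11, 0.07 to 0.15), and Stip1, encoding HOP, the adaptor between HSP70 and HSP90 (7062 and 7043, -0.06, -0.11 to -0.013). Of these, Stip1 was the 1 with its interval below 1. The ATPase activator Ahsa1 (1986 counts treated and 1701 untreated, 0.16, 0.07 to 0.25), Chordc1 (3076 and 2708, 0.12, 0.045 to 0.19) and Ppid (2619 and 2357, 0.09, 0.0070 to 0.17), named after their values were seen, were the others above. Among 10 regulators of HSP70, which share Tomm34 with the first list, 0 had an interval that excluded 1 and the median was -0.010. St13, encoding HIP, had 6942 counts treated and 6584 untreated (0.012, -0.037 to 0.06), and Hsbp1, a small inhibitor of HSF1, 1698 and 1669.

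The cytosolic chaperonin TRiC and its helper prefoldin had 13 tested members of 14 listed, with 4 intervals above 1, 0 below and a median of 0.042. Among genes of 10000 counts or more, as Cct2, Cct5 and Cct8 are, 33.4% had an interval above 1, so this count is no result about the list. Those above were Cct5 (10610 counts treated and 9821 untreated, 0.047), Cct6a (5941 and 5406, 0.07), Cct8 (12120 and 11151, 0.056) and the prefoldin gene Vbp1 (3762 and 3263, 0.14), of which Cct6a and Vbp1 are named after their values were seen. Cct2, the most counted, had 14779 counts treated and 14228 untreated (-0.0095, -0.043 to 0.024). In the ER set that the symbol rule leaves out, Hsp90b1 had 44088 counts treated and 39218 untreated (0.10, 0.08 to 0.12) and Hspa5, encoding BiP, 41326 and 37588 (0.07, 0.052 to 0.09), while Dnajc3 (6927 and 6478), Dnajb9, Dnajb11 and Dnajc10 had intervals that included 1. In these partner lists and the ER set 0 genes passed the 1.2-fold rule in either direction. Of all tested genes 0.975% passed it as higher and 1.92% as lower, so this count is no result about the lists.

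**Figure D4:**
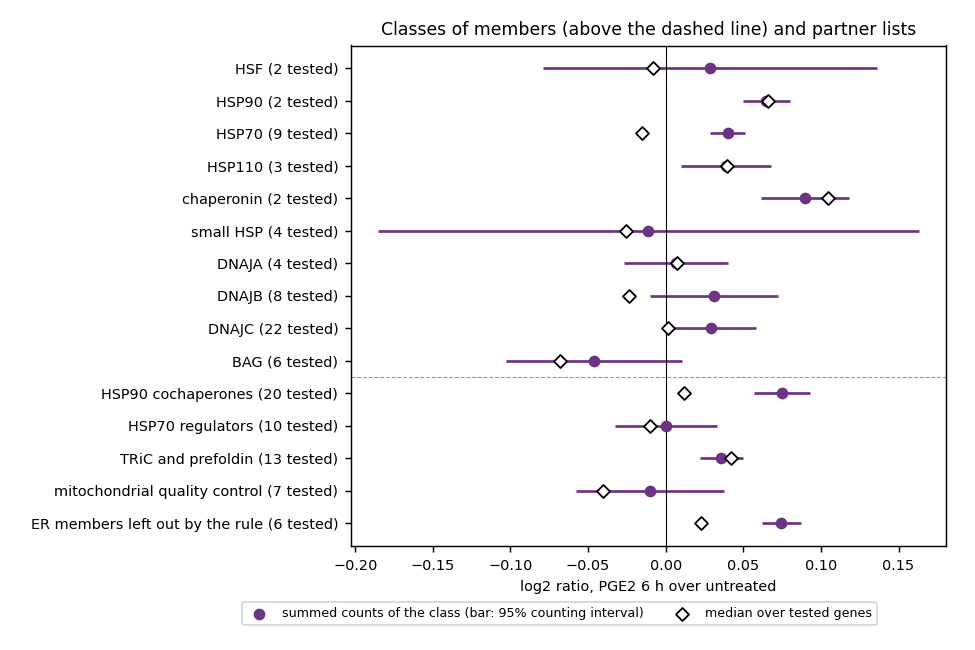
Log2 ratio of the PGE2 over the untreated library for the 10 classes of members and 5 further lists, with purple points for the ratio of summed counts, bars for its 95% counting interval and open diamonds for the median over tested genes. The intervals of the HSP90 (0.06), HSP70 (0.04), HSP110 (0.04) and chaperonin (0.09) sums lie above 0. Those of the HSF, DNAJA, DNAJB, small HSP and BAG sums include 0. The HSF, HSP70 and DNAJB medians lie below 0 while the points of their sums lie above it.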

How the data were processed

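Total RNA of CE1-4 cells was sequenced as 1 stranded total RNA library per group. The deposited table holds raw read counts per gene symbol, which the authors did not normalize. Trimmomatic, HTSeq, Bowtie and TopHat2 and the build mm10 are listed, per the submitters' processing notes. Their versions, the annotation and the strand setting are not given in the sources used, so reads of overlapping genes may be mixed. Counts were scaled with TMM in edgeR 4.0.16 (factors 1.003 for the treated and 0.997 for the untreated library). Log2 ratios use a prior of 0.5 counts, ratios have 95% Clopper-Pearson intervals and levels exact Poisson intervals. All of these describe counting error alone, and no p-value was computed from single libraries. Genes reaching 1 CPM in a library were tested. The members and lists were chosen with earlier results of these data known. Named in each class were the 4 highest per length, members past the 1.2-fold rule, members with at least 500 counts whose interval excluded 1 and fixed genes of the stress response, the rest being accounted for by counts. Exon lengths, coordinates and 50-base windows come from GENCODE M21 on GRCm38 (mm10), in which all 74 members matched. Pfdn6 matched no gene of the table. Protein sequences were not used here. The procedure was tested on simulated data. Scaling, prior, minimum, interval level, fold, trends and length were varied.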

Additional observations from a re-analysis of the deposited data

How the results depend on the processing

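With 1 library per group no replicate could be left out, and no paired analysis was possible because each group holds 1 library. Of the counts given above, 3 moved by over 1.5 times: with a 99% interval 5 members lay above 1 (Hsp90aa1, Hspa8, Hspa9, Hspd1 and Hspe1) and 1 below, and at a minimum of 5 CPM 0 members were past the 1.2-fold rule as lower. Across other scalings, every log2 ratio shifted by between -0.0089 and 0.0079, and 9 to 12 members had an interval above 1. Hsp90ab1 joined under 3 scalings and after GC and length trends, and Hspa4 and Dnajc9 left under totals without Rn45s, Lars2 and Malat1. After subtraction of a trend on abundance 8 members lay above 1 (without Dnajb6, Dnajc9 and Hspa4). After trends on GC content and length 9 did, of which 7 were among the 11, without Dnajc2, Dnajc8, Dnajc9 and Hspa13. Class medians of few genes moved more: that of the small HSPs was 0.20 with no minimum, that of HSP110 0.017 after the abundance trend, and that of DNAJA -0.018 after GC and length trends. The cause was not tested. Of single genes, 432 alternative ratios moved by less than the counting error and 2 by more, Hsp90aa1 (0.09) after the GC and length trends and Hspa8 (0.021) after the abundance trend. The summed DNAJC ratio had a lower bound of 0.00086, within the shift between scalings, so no direction is given for it. Levels per length at 10 CPM per kb or more counted 28 members on exon length and 36 on the longest transcript, where Dnajc9 led its class in place of Dnajc5.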

Other observations

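Heat shock and J domain genes whose symbols fall outside the rule were examined after the data were seen. Cryab, encoding the small heat shock protein alpha B crystallin, had 28 counts in the treated and 35 in the untreated library (log2 ratio -0.38, -1.16 to 0.37). Serpinh1, encoding the collagen chaperone HSP47, had 1 count in each library. The J domain genes Sec63, of the ER translocon, and Gak, which uncoats clathrin vesicles, had 6492 and 1436 counts treated against 6000 and 1325 untreated (0.049, -0.0014 to 0.10, and 0.052, -0.057 to 0.16). Hscb, of iron-sulfur cluster assembly, had 159 counts treated and 152 untreated. Of the other heat shock factor genes, Hsf4 had 0 counts treated and 1 untreated, Hsf5 1 and 3, and Hsf3 0 in both.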
